A study of Mus musculus with 9 samples.

Results

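Cholesterol synthesis, uptake and export was followed through 29 genes in the livers of mice that lacked Atg7 in hepatocytes, with and without a mutation of p62. The genes were chosen by symbol as genes of the pathway, with earlier results of these data known, and all 29 were found among the 24411 genes of the count table. All 29 passed the filter on low counts, which left 11199 genes. They fell into 4 role groups: 7 genes from acetyl-CoA to farnesyl diphosphate, 11 from squalene to cholesterol, 4 of the SREBP pathway, and 7 of transport, esterification, uptake and export.

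Poly(A) RNA of 9 livers was sequenced, from C57BL/6 mice at 3 months of age, with 3 livers in each of 3 groups. The cont. mice were Atg7flox/flox without Cre. The Atg7-KO mice were Atg7flox/flox;Alb-Cre, in which the albumin promoter drives Cre in hepatocytes, so other liver cells keep Atg7. The S351A mice were Atg7flox/flox;Alb-Cre;p62S351A/S351A, in which the serine of p62 whose phosphorylation strengthens KEAP1 binding was replaced by alanine. All 3 groups carried the floxed Atg7 alleles. The genotype entries of S351A replicates 2 and 3 name other residues of p62, and the titles were followed.

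Cholesterol is built from acetyl-CoA through mevalonate, farnesyl diphosphate, squalene and lanosterol. When sterols in the ER membrane are low, SCAP carries the transcription factor SREBP-2 to the Golgi, where it is cut and released to raise transcription of the synthesis genes. When sterols are high, INSIG proteins hold SCAP in the ER. Hepatocytes also take up HDL cholesterol, store cholesterol as esters, and export it to HDL and to bile.

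The region before the transcription start was read for 23 of the 29 genes from RefSeq windows of build GRCm38.p6, each holding 250 bases before and 50 bases after the start. Fdps, Fdft1, Sqle, Stard4, Soat2 and Scarb1 had no window. CCAAT, the motif bound by NF-Y, was present on either strand in 20 of the 23 genes, and in 14 of the 15 synthesis genes with a window (93.3%), against 41.1% of all genes and 37.4% of all 32851 windows. GGGCGG, the motif bound by Sp1, was present in 19 of 23 members against 38.2% of all genes. The sterol regulatory element was searched as TCACNCCAC and was found only in Hmgcs1 among the 23, against 1.44% of all genes. Its shorter form CACNCCA, which lies inside the longer one, was present in 6 of 23 against 20.6% of all genes. CACGTG, the E-box, was present in 6 of 23 against 8.09%. These matches are a description of letters in a window.

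The upstream stretches of 6 genes are shown, because they carry the sterol regulatory element (Hmgcs1), the most CCAAT matches (Mvk), a gene that was lower in both mutant groups (Ebp), a pair of paralogs with different results (Insig1 and Insig2), and the gene with the highest level per length (Lcat). They run 5′ to 3′ on the strand of the gene, and capitals mark TCACNCCAC, CCAAT or its reverse complement ATTGG, and CACGTG. Bases that GENCODE M21 places in an exon were left out. The stretches lie at chr13:119690101-119690350 on the plus strand (Hmgcs1), chr5:114444061-114444268 on the plus strand (Mvk), chrX:8193513-8193762 on the minus strand (Ebp), chr5:28071162-28071362 on the plus strand (Insig1), chr1:121332590-121332839 on the minus strand (Insig2) and chr8:105943403-105943589 on the minus strand (Lcat).
Hmgcs1: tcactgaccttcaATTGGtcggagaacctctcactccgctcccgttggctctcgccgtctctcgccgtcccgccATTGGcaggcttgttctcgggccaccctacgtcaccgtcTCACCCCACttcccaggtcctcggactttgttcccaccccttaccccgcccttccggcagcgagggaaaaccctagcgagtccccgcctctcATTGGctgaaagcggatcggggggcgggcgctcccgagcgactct
Mvk: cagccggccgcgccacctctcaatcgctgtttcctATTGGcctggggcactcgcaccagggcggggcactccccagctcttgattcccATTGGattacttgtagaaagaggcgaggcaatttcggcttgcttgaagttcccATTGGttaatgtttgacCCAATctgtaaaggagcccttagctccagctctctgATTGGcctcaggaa
Ebp: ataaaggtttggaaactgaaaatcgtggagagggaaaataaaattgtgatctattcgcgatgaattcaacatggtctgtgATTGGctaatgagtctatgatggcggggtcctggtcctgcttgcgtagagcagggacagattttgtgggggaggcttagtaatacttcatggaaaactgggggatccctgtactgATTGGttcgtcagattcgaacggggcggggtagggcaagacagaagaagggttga
Insig1: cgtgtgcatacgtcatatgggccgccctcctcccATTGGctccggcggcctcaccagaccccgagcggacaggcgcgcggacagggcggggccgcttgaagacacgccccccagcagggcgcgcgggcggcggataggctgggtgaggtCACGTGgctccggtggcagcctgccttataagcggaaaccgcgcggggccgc
Insig2: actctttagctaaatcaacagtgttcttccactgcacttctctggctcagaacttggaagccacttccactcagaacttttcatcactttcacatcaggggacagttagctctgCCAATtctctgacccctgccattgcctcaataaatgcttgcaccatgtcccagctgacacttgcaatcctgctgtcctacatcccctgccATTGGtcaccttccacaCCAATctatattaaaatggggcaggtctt
Lcat: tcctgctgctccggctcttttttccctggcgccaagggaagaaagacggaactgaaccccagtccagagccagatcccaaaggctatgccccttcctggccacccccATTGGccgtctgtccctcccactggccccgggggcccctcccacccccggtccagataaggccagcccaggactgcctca
Of the genes called lower in Atg7-KO, Ebp held 2 CCAAT matches in these stretches, Insig2 3 and Lcat 1. Of those not called, Hmgcs1 held 3, Mvk 5 and Insig1 1. Among stretches not shown, that of Scap, also called lower, held 0 CCAAT matches. Those of Cyp51, Abca1 and Abcg8, which were not called, held 0 as well. The stretches differ in length, at 250 bases for Scap and Abca1, 201 for Cyp51 and 109 for Abcg8. In the full windows Cyp51 held 1 CCAAT match and Abcg8 held 2, whereas Scap and Abca1 held 0.

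Library totals ran from 713841 to 15426575 counts. The 3 S351A libraries were the smallest (713841 to 792372), and cont. replicate 3 was the largest. Levels are given as CPM, each gene's counts per unit of library size after TMM scaling, and 3 counts corresponded to 0.269 CPM in the largest library and 3.73 in the S351A library with the highest such floor. Atg7 itself fell from 48.4 ± 8.2 CPM in cont. (SD, n = 3) to 28.8 ± 1.16 in Atg7-KO and 23.0 ± 1.64 in S351A (n = 3 each). The 4 hepatocyte markers measured were called lower in both mutant groups, with summed levels of 43600 to 99400 CPM in cont., 30000 to 37000 in Atg7-KO and 28400 to 41800 in S351A. All 5 ductular markers were called higher in both (47.2 to 83.3 CPM in cont., 816 to 1200 and 719 to 1190 in the mutant groups), as were 6 of 7 stellate and matrix markers (256 to 517, 1210 to 1690 and 1130 to 1640) and 4 of 8 macrophage markers (214 to 330, 293 to 382 and 262 to 290). Of 5 proliferation markers, 5 were called higher in Atg7-KO and 4 in S351A (10.7 to 18.4, 93.7 to 132 and 81.4 to 95.6). Of 5 endothelial markers, 1 was called higher and 2 lower in Atg7-KO, and 1 higher in S351A (92.2 to 176, 126 to 146 and 107 to 137). Of 2 erythroid markers tested, Alas2 was called lower in both mutant groups (summed levels of 111 to 231, 8.61 to 28.8 and 22.2 to 42.2). The part of these shifts in cell make-up in the results below was not tested, and in whole liver fewer hepatocytes and less RNA per hepatocyte cannot be told apart. By sex-linked genes, cont. and the mutant groups also differed in sex, with 1 female liver of 3 in cont. and 2 of 3 in each of the others.

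Per kilobase of exon, the highest cont. level among the members was that of Lcat (292 CPM per kb), followed by Hmgcs1 (155), Insig1 (138), Abcg5 (110), Sc5d (107) and Ebp (103). Srebf2 (2.71 CPM per kb), Stard4 (3.11) and Sqle (3.47) were lowest. Lcat, Hmgcs1 and Insig1 kept ranks 1 to 3 in all groups, whereas Ebp moved from rank 6 in cont. to 9 in Atg7-KO and Tm7sf2 from rank 17 to 26. Some reads of several members could also come from other genes, since of their 75-base stretches 33.9% were shared for Acat2 (with Acat3 and Tcp1), 23.6% for Idi1, 23.5% for Fdps and 21.8% for Fdft1 (mainly with Ctsb on the opposite strand). This share was 9.79% for Hmgcs1 (with Gm48342 and Rasgrp2), 8.83% for Tm7sf2 (with Vps51) and 8.26% for Scap (with 5830462I19Rik). The library kit does not mark strand, so these levels are uncertain to that extent.

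**Figure D1:**
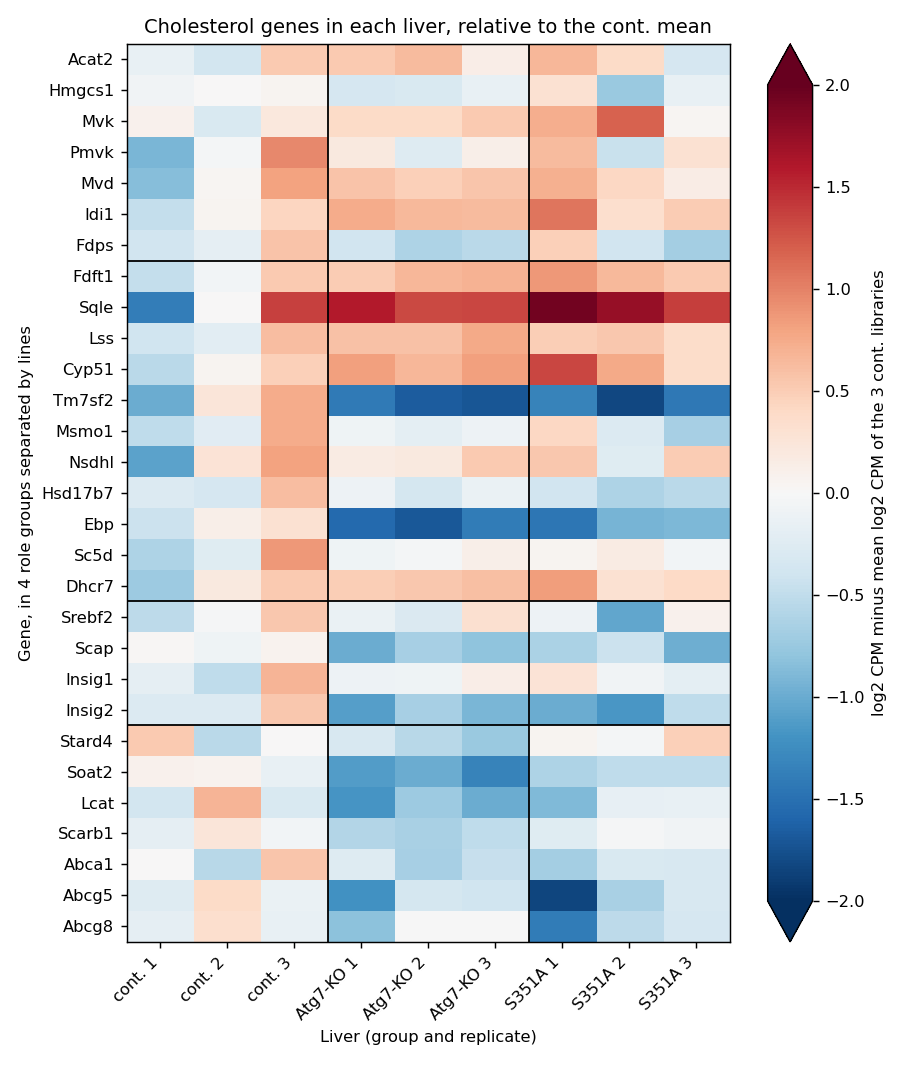
Level of each of the 29 genes (rows, in 4 role groups) in each liver (columns), as log2 CPM minus the mean log2 CPM of the 3 cont. libraries (colour). Tm7sf2 and Ebp are low in all 6 mutant livers, and all 18 synthesis genes are higher in cont. replicate 3 than in the other 2 cont. libraries.

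The first question was how loss of Atg7 in hepatocytes moved these genes. In Atg7-KO against cont., 7 of the 29 genes were called lower and 0 higher, where called means an adjusted p under 0.05 and a fold change above 1.5 in the quasi-likelihood F test of edgeR, p-values being adjusted over all 11199 genes by the method of Benjamini and Hochberg. Among all genes tested 18.1% were called lower, 19.9% higher and 38.0% in either direction. The 7 were Tm7sf2 and Ebp of the squalene-to-cholesterol steps, Scap and Insig2 of the SREBP pathway, and Soat2, Lcat and Scarb1 of esterification and uptake. At an unadjusted p under 0.05 there were 10 of the 29 (47.5% of all genes), of which 3 were higher. DESeq2 called 1 member higher, against 19.8% of all genes, and limma-voom 3, against 22.0%. Every Atg7-KO liver was below every cont. liver for 9 members (24.9% of all genes) and above for 3, Mvk, Idi1 and Cyp51 (26.7%). The median log2 fold change of the 29 was -0.26, against -0.03 over all genes tested.

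The 2 called synthesis genes had the largest changes. Tm7sf2 (chr19:6062821-6068373, mm10, minus strand) encodes a sterol C14-reductase that acts just after the CYP51 step. Its levels were 33.7, 80.3 and 114 CPM in cont. replicates 1, 2 and 3, 25.1, 20.8 and 20.1 in Atg7-KO, and 26.4, 18.6 and 24.7 in S351A. Every mutant liver was below every cont. liver, although the cont. livers themselves ranged from 33.7 to 114 CPM. The fitted level in Atg7-KO was 3.50-fold lower (log2 -1.81 ± 0.34 SE, adjusted p = 0.00139).

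Ebp (chrX:8185329-8193512, mm10, minus strand) encodes the sterol isomerase that moves the double bond of the sterol nucleus. It was measured at 172, 251 and 287 CPM in cont., 78.6, 71.1 and 86.9 in Atg7-KO, and 85.0, 122 and 123 in S351A. No mutant liver reached the lowest cont. liver. The fold change in Atg7-KO was 3.01-fold lower (log2 -1.59 ± 0.24 SE, adjusted p = 0.000347).

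**Figure D2:**
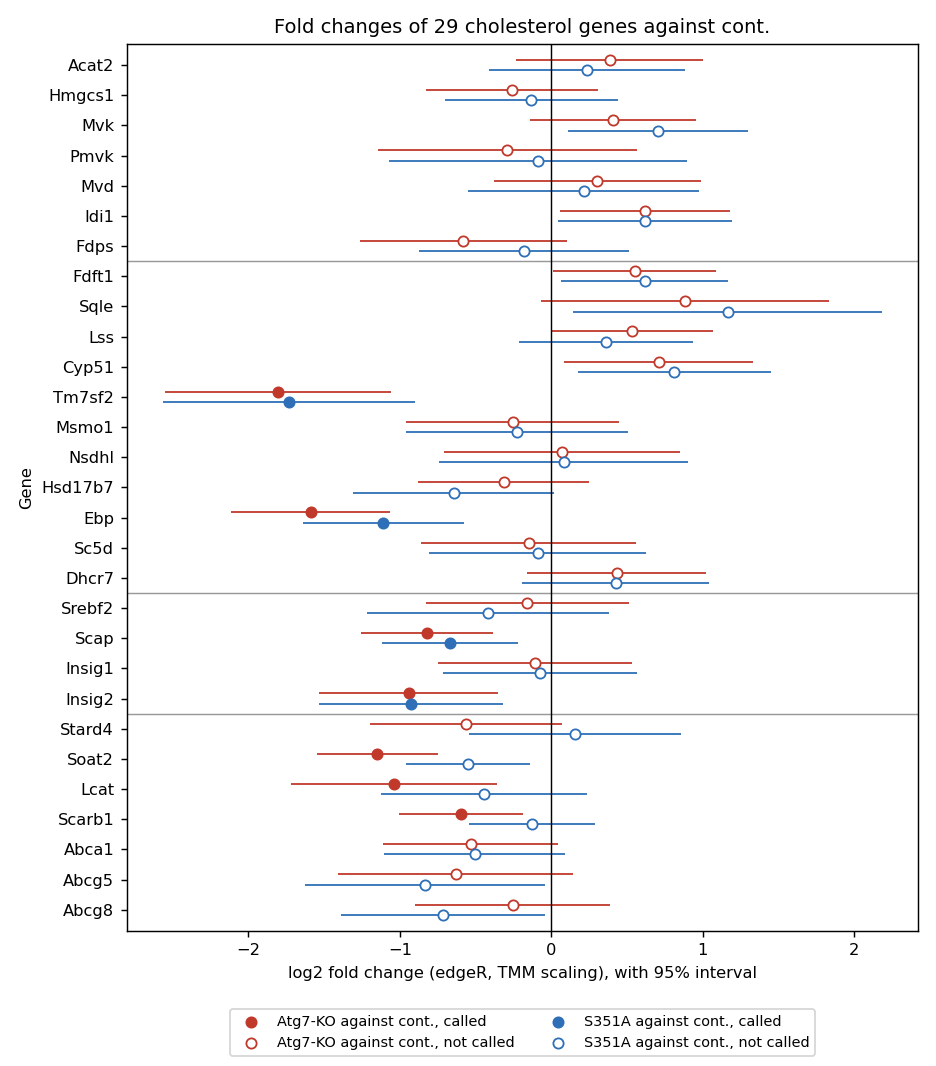
Log2 fold change of each gene against cont. in Atg7-KO (red) and S351A (blue), with 95% intervals; filled points were called and lines separate the role groups. The filled points are all below 0, 7 in Atg7-KO and 4 in S351A.

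The other 16 synthesis genes were not called. The 7 genes from acetyl-CoA to farnesyl diphosphate had a median log2 fold change of 0.30 in Atg7-KO, 4 of them above 0 and 3 below, and 0 were called. The 11 genes from squalene to cholesterol had a median of 0.07, and 2 were called lower. The largest positive values were those of Sqle, the squalene epoxidase (log2 0.89 ± 0.44 SE, adjusted p = 0.13), Cyp51, the lanosterol demethylase (0.71 ± 0.29 SE, adjusted p = 0.0696), Idi1, the isopentenyl diphosphate isomerase (0.62 ± 0.26 SE, adjusted p = 0.0774), Fdft1, which makes squalene (0.55 ± 0.25 SE, adjusted p = 0.099) and Lss, which closes the rings of lanosterol (0.53 ± 0.25 SE, adjusted p = 0.106).

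In each of these 5 genes the SD in CPM was larger in cont. than in Atg7-KO, and for Cyp51 and Idi1 it was largest in S351A. On the log2 scale, relative to the cont. mean, Cyp51 ran from -0.53 to 0.48 in cont. and from 0.37 to 1.34 in S351A. Idi1 ran from -0.47 to 0.43 in cont. and from 0.33 to 1.08 in S351A, so on that scale S351A did not vary most. Sqle was measured at 5.09, 14.4 and 38.2 CPM in cont., 44.5, 37.0 and 37.1 in Atg7-KO, and 56.3, 49.7 and 38.3 in S351A. Cyp51 was measured at 61.7, 92.6 and 125 CPM in cont., 159, 143 and 159 in Atg7-KO, and 227, 151 and 116 in S351A. In both, cont. replicate 3 came closest to the Atg7-KO livers. Sqle counts in cont. replicate 1 were 8, and those in replicate 3 were 426.

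The synthesis genes moved together within cont. All 18 had their highest cont. level in replicate 3, where 36.2% of all genes tested had theirs, and 15 had their lowest in replicate 1. The median log2 range among the 3 cont. libraries was 1.02 for the 18 genes and 0.68 for all genes, while in Atg7-KO it was 0.19 and 0.36. In S351A, 14 of the 18 were highest in replicate 1, against 33.5% of all genes, and the median range was 0.65 against 0.71. The median level of the 18 genes relative to the cont. mean was -0.50, -0.02 and 0.59 (log2) in cont., 0.29, 0.29 and 0.33 in Atg7-KO, and 0.59, 0.24 and 0.10 in S351A, so the Atg7-KO livers sat inside the range of cont.

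Whether the synthesis genes were called higher changed with cont. replicate 3 and with the scaling between libraries. Without cont. replicate 3, 6 of the 29 were called higher in Atg7-KO (Sqle, Lss, Fdft1, Cyp51, Idi1 and Mvd) and 6 lower, against 18.3% and 16.6% of the 11585 genes then tested, and the median of the 29 was 0.20. Sqle then had a log2 fold change of 1.90 (adjusted p = 0.00109) and Lss 0.94 (adjusted p = 0.00281). When libraries were scaled by their total alone, 9 were called higher and 3 lower, against 38.5% and 7.11% of all genes, and of all calls 84.4% were higher in place of 52.3%. That scaling moved the median of all genes by 0.55 (log2), and relative to it the median of the 29 was -0.22, as it was with TMM. Without the 20 genes with most counts in the library size, 7 were called higher and 3 lower, against 30.7% and 9.68% of all genes, and 76% of all calls were higher. Tm7sf2, Ebp and Soat2 were called lower under each of these settings.

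**Figure D3:**
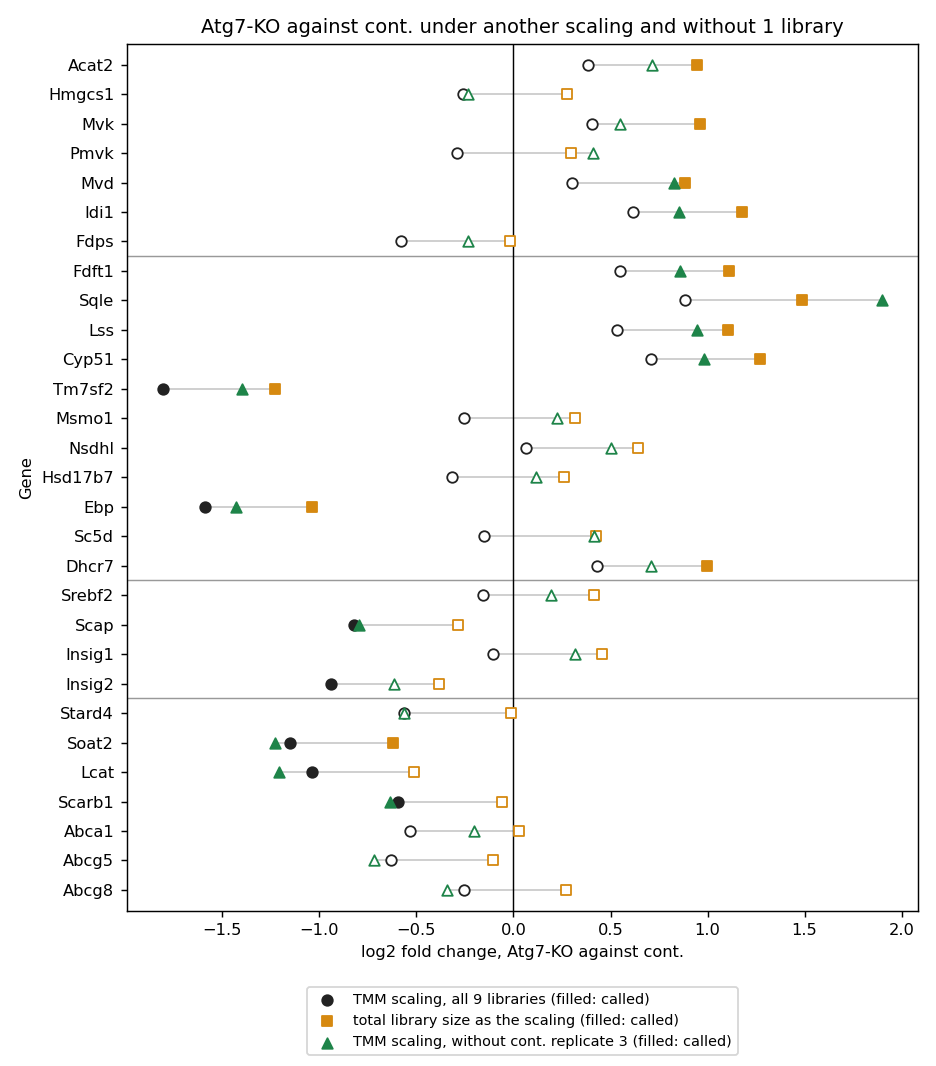
Log2 fold change of each gene in Atg7-KO against cont. with TMM scaling (circles), with total library size (squares) and with TMM scaling without cont. replicate 3 (triangles); filled symbols were called. The synthesis genes with filled squares or triangles above 0 have open circles, and Tm7sf2, Ebp and Soat2 are filled below 0 throughout.

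The remaining genes of the pathway from acetyl-CoA did not pass the test in either mutant group. Hmgcs1, the HMG-CoA synthase, was measured at 678, 715 and 741 CPM in cont., 565, 578 and 641 in Atg7-KO, and 881, 425 and 642 in S351A. Every Atg7-KO liver was below every cont. liver, yet the log2 fold change was -0.26 (95% interval -0.83 to 0.31). It turned positive with total library size (0.28) and without the 20 top genes in the library size (0.095). The medians of all genes were then 0.515 and 0.326. Acat2, which condenses acetyl-CoA, had a log2 fold change of 0.39 (-0.23 to 1.00), Mvk, the mevalonate kinase, 0.41 (-0.14 to 0.95), Pmvk, the next kinase, -0.29 (-1.15 to 0.56), Mvd, the decarboxylase, 0.30 (-0.38 to 0.99) and Fdps, which makes farnesyl diphosphate, -0.58 (-1.27 to 0.10). Acat3, the paralog that shares sequence with Acat2, had -0.21.

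Among the late steps, the values were close to 0 with wide intervals. They were -0.26 (-0.96 to 0.45) for Msmo1, the C4-methyl oxidase, 0.07 (-0.71 to 0.85) for Nsdhl, the C4-decarboxylase, -0.32 (-0.88 to 0.25) for Hsd17b7, which reduces the C3-ketone, -0.15 (-0.86 to 0.56) for Sc5d, the C5-desaturase, and 0.43 (-0.16 to 1.02) for Dhcr7, the last reductase. With total library size the negative values turned positive (0.32 for Msmo1, 0.26 for Hsd17b7 and 0.42 for Sc5d), as did that of Pmvk (0.30). The median of all genes was 0.515 with that scaling. Tm7sf2 and Ebp, 2 steps of the same stretch, were the 2 of the 11 genes from squalene to cholesterol that were called lower.

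The SREBP pathway had 2 of 4 genes called lower in Atg7-KO and a median log2 fold change of -0.49, against -0.03 over all genes. With total library size these medians were 0.06 and 0.515. Scap (chr9:110333288-110384950, mm10, plus strand), the sterol sensor that escorts SREBP-2, was at 163, 152 and 169 CPM in cont., 80.3, 102 and 91.5 in Atg7-KO, and 103, 119 and 81.4 in S351A. All 6 mutant livers were below the cont. livers, which lay close together, and the level in Atg7-KO was 1.77-fold lower (log2 -0.82 ± 0.20 SE, adjusted p = 0.00652). Insig2 (chr1:121304353-121332589, mm10, minus strand) was at 170, 169 and 300 CPM in cont., 95.6, 129 and 109 in Atg7-KO, and 102, 90.6 and 144 in S351A. Every mutant liver was again below every cont. liver, with 1.92-fold lower levels in Atg7-KO (log2 -0.94 ± 0.27 SE, adjusted p = 0.016).

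Both calls were lost with total library size, where the log2 fold changes were -0.29 for Scap and -0.39 for Insig2, and Insig2 was also not called without cont. replicate 3 (-0.61, adjusted p = 0.0582) or without Atg7-KO replicate 1 or 3. Insig1, the paralog of Insig2 and itself a known target of SREBPs, was at 352, 283 and 645 CPM in cont., 372, 379 and 439 in Atg7-KO, and 484, 382 and 350 in S351A. The groups overlapped, and the log2 fold change in Atg7-KO was -0.11 (95% interval -0.75 to 0.53). Srebf2, which encodes SREBP-2, was low in all livers (12.7 to 27.3 CPM in cont., 15.1 to 23.3 in Atg7-KO, 8.69 to 19.7 in S351A) and had a log2 fold change of -0.16 (-0.83 to 0.51). The values of Insig1 and Srebf2 turned positive with total library size (0.45 and 0.41), where the median of all genes was 0.515.

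All 7 genes of transport, esterification, uptake and export had negative log2 fold changes in Atg7-KO, with a median of -0.60, and 3 were called lower. With total library size the median was -0.06, against 0.515 over all genes, and Abca1 and Abcg8 turned positive (0.03 and 0.27). Soat2 (chr15:102150526-102163469, mm10, plus strand), which esterifies cholesterol in hepatocytes, was at 128, 126 and 109 CPM in cont., 55.2, 60.3 and 47.6 in Atg7-KO, and 78.1, 84.4 and 85.2 in S351A. The 3 groups did not overlap, with S351A between the other two. The level in Atg7-KO was 2.22-fold lower than in cont. (log2 -1.15 ± 0.18 SE, adjusted p = 0.000455). Soat1, which does the same reaction in macrophages and many other cells, was called higher in Atg7-KO at a low level (1.66 ± 0.934 CPM in cont., 5.40 ± 0.968 in Atg7-KO, SD, n = 3 each), beside the rise of 4 of 8 macrophage markers.

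Lcat (chr8:105939551-105943382, mm10, minus strand) encodes the secreted enzyme that esterifies cholesterol on HDL. It was at 287, 589 and 298 CPM in cont., 162, 224 and 185 in Atg7-KO, and 201, 329 and 333 in S351A. Every Atg7-KO liver was below every cont. liver, and the level was 2.06-fold lower (log2 -1.04 ± 0.31 SE, adjusted p = 0.0194). The call was lost without cont. replicate 2, the one female liver of that group (log2 -0.63, adjusted p = 0.0873). It was also lost without Atg7-KO replicate 1 or 3 and with total library size. With sex as a term in the fit, Lcat was called lower (log2 -1.19, adjusted p = 0.00131).

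Scarb1 (chr5:125277087-125341094, mm10, minus strand) encodes SR-B1, the receptor for HDL cholesterol. It was at 98.5, 132 and 107 CPM in cont., 74.2, 70.7 and 78.7 in Atg7-KO, and 94.2, 109 and 106 in S351A. The Atg7-KO livers were the 3 lowest of the 9, at 1.51-fold lower levels than cont. (log2 -0.60 ± 0.19 SE, adjusted p = 0.0241). This fold lies just past the threshold, and the call was lost in 13 of 21 alternatives, among them DESeq2, limma-voom and the loss of cont. replicate 2 or of any Atg7-KO library.

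The export pumps and Stard4 were not called in Atg7-KO. Abca1, which loads cholesterol onto HDL particles, was at 115, 77.8 and 168 CPM in cont. and 95.8, 71.8 and 82.8 in Atg7-KO, a log2 fold change of -0.53 (95% interval -1.11 to 0.04). Stard4, a carrier of sterol between membranes, was at 24.2, 11.3 and 16.8 CPM in cont., 13.2, 11.1 and 9.61 in Atg7-KO, and 17.2, 16.1 and 23.4 in S351A. Its log2 fold change in Atg7-KO was -0.56 (-1.20 to 0.07), and both Stard4 and Abca1 were called lower without cont. replicate 2 (-0.78 each, adjusted p = 0.0407 and 0.0221).

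Abcg5 and Abcg8 encode the 2 partners of the pump that moves sterols into bile, and their starts lie 110 bases apart on opposite strands. Abcg5 was at 246, 385 and 266 CPM in cont., 126, 231 and 222 in Atg7-KO, and 81.6, 188 and 234 in S351A. Abcg8 was at 110, 158 and 113 CPM in cont., 70.5, 125 and 125 in Atg7-KO, and 47.1, 86.9 and 98.7 in S351A. The lowest liver of each mutant group was replicate 1 for both genes.

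That pattern ran with the sex of the liver, but the only male liver of each mutant group was replicate 1. There, sex cannot be told apart from that animal or from its replicate number. Replicate 1 of each group and cont. replicate 3 were male by sex-linked genes, and females were above males in all 3 groups for Abcg5, Abcg8 and Lcat, as for 5.96% of all genes. The log2 difference of female minus male was 0.91 for Abcg5 (adjusted p = 0.113), 0.75 for Abcg8 (adjusted p = 0.125) and 0.69 for Lcat (adjusted p = 0.246), none of them called. Hsd17b7 was the 1 member with males above females in all 3 groups, as for 4.69% of all genes. With sex as a term in the fit, Abcg5 was called lower in Atg7-KO (log2 -0.97, adjusted p = 0.00635, against -0.63 and 0.183 without it). In that fit 8 members were called lower and 1, Cyp51, higher, against 17.7% and 19.9% of all genes.

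**Figure D4:**
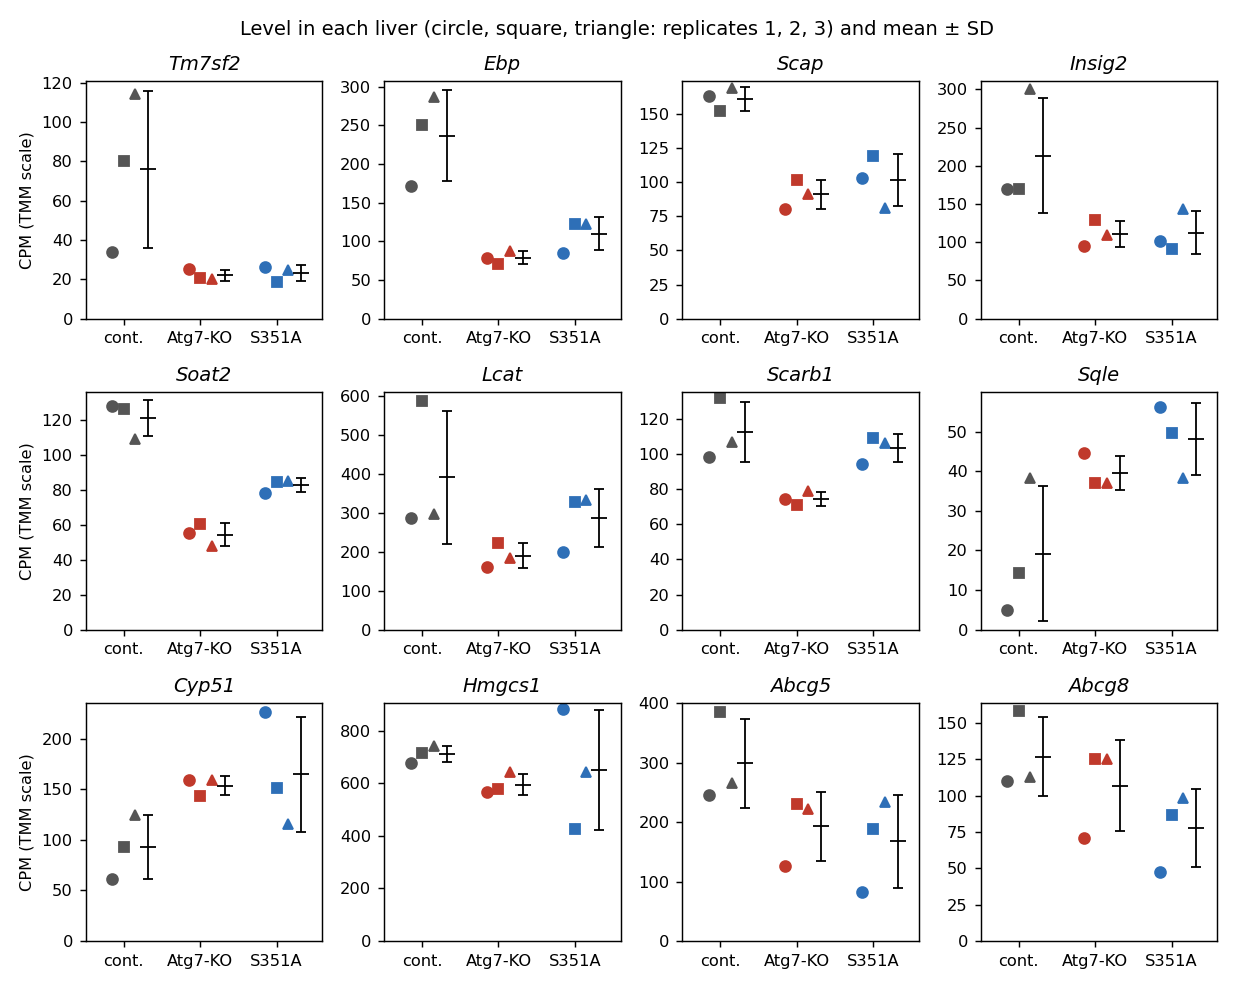
CPM (TMM scale) of 12 genes in each liver, with circles, squares and triangles for replicates 1, 2 and 3 and the group mean ± SD in black. Tm7sf2, Ebp, Scap and Insig2 are lower in both mutant groups, whereas S351A lies between cont. and Atg7-KO for Soat2.

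The second question was where the same genes stood when p62 carried the S351A mutation. In S351A against cont., 4 of 29 genes were called lower and 0 higher, against 13.0% and 15.6% of all genes tested, with a median log2 fold change of -0.13 against -0.03. The same 3 cont. libraries served both comparisons. The 4 were Tm7sf2 (log2 -1.73 ± 0.38 SE, adjusted p = 0.00548), Ebp (-1.11 ± 0.25 SE, adjusted p = 0.00548), Insig2 (-0.93 ± 0.28 SE, adjusted p = 0.0261) and Scap (-0.67 ± 0.21 SE, adjusted p = 0.0289). Tm7sf2 rested on 23, 15 and 20 counts in the S351A libraries. At an unadjusted p under 0.05 there were 12 of the 29 (41.0% of all genes), of which 5 were higher (Mvk, Idi1, Fdft1, Sqle and Cyp51). DESeq2 called 2 members higher, against 16.4% of all genes, and limma-voom 2, against 16.0%. All S351A livers were below all cont. livers for 8 members (18.4% of all genes) and above for 1, Sqle (19.6%). Insig2 was not called without cont. replicate 3 or S351A replicate 1 or 2, nor Scap without Atg7-KO replicate 3 or S351A replicate 1 or 3.

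Soat2 passed the adjusted p but not the fold in S351A, at 1.46-fold lower than cont. (adjusted p = 0.0443). Lcat had a log2 fold change of -0.45 (95% interval -1.12 to 0.23) and Scarb1 -0.13 (-0.54 to 0.29). Abcg5 had -0.84 (adjusted p = 0.104) and Abcg8 -0.71 (adjusted p = 0.103), and with sex as a term both were called lower (-1.22, adjusted p = 0.00311, and -1.00, adjusted p = 0.00426).

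Of the synthesis genes, Sqle had the largest positive value in S351A, and its 3 S351A livers were above all cont. livers, the highest cont. liver being at 38.2 CPM and the lowest S351A liver at 38.3 (log2 1.16 ± 0.47 SE, adjusted p = 0.082). Cyp51 followed at 0.81 ± 0.29 SE (adjusted p = 0.0552) and Mvk at 0.71 ± 0.27 SE (adjusted p = 0.0712). Without cont. replicate 3, 5 members were called higher in S351A (Sqle, Fdft1, Lss, Cyp51 and Idi1) and 4 lower, against 13.1% and 11.5% of all genes then tested. With total library size 7 were called higher and only Tm7sf2 lower, against 31.6% and 4.55% of all genes, with 87.4% of all calls higher in place of 54.5%. Without S351A replicate 1, the male liver of that group, only Tm7sf2 and Ebp were called lower, against 7.63% of all genes in place of 13.0%. Scap then had -0.70 (adjusted p = 0.0737) and Insig2 -0.875 (adjusted p = 0.0926). With sex as a term both were called lower (adjusted p = 0.0391 for Scap and 0.0396 for Insig2).

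The third comparison, S351A against Atg7-KO, asks what the p62 mutation changed in livers that lack Atg7. No member was called in either direction by edgeR, DESeq2 or limma-voom, and of all genes tested edgeR called 0.00893% lower and 0% higher. Over all genes DESeq2 called 23 higher and 17 lower in this comparison, and limma-voom 0 and 0. At an unadjusted p under 0.05 there were 3 of 29, against 6.60% of all genes, and all 3 were higher in S351A and belonged to transport, esterification and uptake. Their values were 0.60 for Soat2 (95% interval 0.19 to 1.01, unadjusted p = 0.00792, adjusted p = 0.612), 0.47 for Scarb1 (0.05 to 0.89, 0.0314 and 0.738) and 0.72 for Stard4 (0.00 to 1.44, 0.0496 and 0.755). In each of these 3 genes every S351A liver was above every Atg7-KO liver, as for 7.67% of all genes.

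For Lcat, the difference was 0.60 (-0.09 to 1.28, adjusted p = 0.816), and Ebp had 0.48 (-0.05 to 1.01, adjusted p = 0.816). Tm7sf2 had 0.07 (-0.80 to 0.95), Insig2 0.02 (-0.59 to 0.62) and Scap 0.15 (-0.30 to 0.60). Lss and Hsd17b7 were lower in every S351A liver than in every Atg7-KO liver, as were 9.23% of all genes, with log2 differences of -0.17 (-0.74 to 0.40) and -0.33 (-1.01 to 0.35). The F test for any difference among the 3 groups passed the adjusted threshold in 5 of 29 members, against 35.1% of all genes tested. These were Ebp (adjusted p = 0.000702), Soat2 (0.00138), Tm7sf2 (0.00163), Scap (0.0122) and Insig2 (0.0199).

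A second list held 35 further sterol genes of which 30 were tested. In Atg7-KO against cont. 6 of the 30 were called higher and 5 lower, against 19.9% and 18.1% of all genes tested, with a median log2 fold change of 0.05. The higher ones with the lowest p were Npc2 and Lipa, which release and hand on cholesterol in the lysosome (1.56 ± 0.21 and 1.02 ± 0.24 SE), Tmem97, a sterol-regulated ER protein (1.74 ± 0.25), and Mbtps2, a protease that cuts SREBPs (1.12 ± 0.27). Npc2 was at 23.5, 39.4 and 33.9 CPM in cont., 94.0, 94.4 and 102 in Atg7-KO, and 85.0, 78.2 and 66.6 in S351A, without overlap between cont. and the mutant groups. The lower ones were led by Gramd1c, of a family of sterol carriers (-2.23 ± 0.42), Cyp27a1, the sterol 27-hydroxylase of bile acid synthesis (-1.28 ± 0.31), Dhdds, which draws farnesyl diphosphate into dolichol (-0.86 ± 0.28) and Stard5, a sterol carrier (-0.61 ± 0.20). The fifth, Acly, which supplies cytosolic acetyl-CoA, was at 77.6, 63.0 and 356 CPM in cont. and 54.2 to 63.1 in Atg7-KO (log2 -1.55 ± 0.55 SE), with cont. replicate 3 far above the other livers. In S351A against cont., 3 of the 30 were called higher (Npc2, Tmem97 and Lipa) and 4 lower (Gramd1c, Cyp27a1, Mbtps1 and Rnf139), against 15.6% and 13.0% of all genes tested, and none was called between S351A and Atg7-KO by edgeR, where 1 had an unadjusted p under 0.05.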

How the data were processed

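The study extracted liver RNA, prepared poly(A) libraries and sequenced 75-base single reads. The submitters' processing notes name Trim Galore, STAR, RSEM and mm10. The annotation, strand setting and tool versions are not given in the sources used here. The deposited values are expected counts that the authors estimated with RSEM, unscaled and not pooled, of which 4.40% to 7.75% per library were not whole, and they were rounded. Columns were matched to livers by genotype and replicate number in the titles. Precision follows depth (713841 to 15426575 counts), and floors cover counting error only, since reads are not independent molecules.

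The fits used edgeR 4.0.16 under R 4.3.3. filterByExpr (minimum count 10, minimum total 15) kept 11199 genes, libraries were scaled by TMM, and 1 quasi-likelihood fit of all 9 libraries gave the 3 comparisons and an F test over the groups, with Benjamini-Hochberg adjustment over all genes. SE are those implied by the p-value. Log2 levels used a prior count of 2. Replicates were described as biological by the study. The script was tested on simulated data. Positions and exon lengths came from GENCODE M21, upstream sequences from RefSeq GRCm38.p6, and the sex of each liver from sex-linked genes.

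The members, lists and marker genes were chosen with earlier results of these data known. All 29 members are named, and of the other sterol genes the 4 called genes with the lowest p in each direction. Soat1 and Acat3 are paralogs of members, and Acly, Mbtps1 and Rnf139 were named after their values were seen. Of the listed other sterol genes 5 were not tested. The alternatives changed the scaling (RLE factors, the library total, or that total without its top 20 genes), the filter (none, or 10 counts required of each library), the tool (limma-voom from limma 3.58.1, or DESeq2 1.42.0), the model (only the pair of groups compared, a block for replicate number, or a term for sex), the depth (thinning), the minimum fold (none) and the prior count of levels (0.5), and each library was left out in turn.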

Additional observations from a re-analysis of the deposited data

How the results depend on the processing

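The number of members called higher in Atg7-KO against cont. (0 with TMM scaling) was 9 with total library size, 7 without the 20 top genes in the library size, 4 with thinned counts, 3 with limma-voom, 1 each without a filter, with 10 counts required of each library, with DESeq2, with the 6 compared libraries alone and with sex as a term, and 0 to 6 when 1 library was left out. The number called lower (7) was 3 with either library-size scaling and 4 to 7 with 1 library left out, at 4 without Atg7-KO replicate 1 or 3. The median of the 29 (-0.26) became 0.30 with total library size and ran from -0.37 to 0.20 with 1 library left out. In S351A against cont., members called higher (0) numbered 7 with total library size, 5 without the top genes, 4 thinned, 2 each with DESeq2 and limma-voom, 1 each with RLE, no filter, at least 10 counts and sex as a term, and 0 to 5 with 1 library left out (2 without S351A replicate 3). The share of all genes called higher was 15.6% with TMM scaling, 31.6% with total library size and 24.6% without the top genes. It was 12.9% thinned, 16.4% with DESeq2, 16.0% with limma-voom, 11.3% to 16.0% where 1 member was called, and 10.3% to 16.3% with 1 library left out. Members called lower (4, against 13.0% of all genes) numbered 1 with total library size (4.55%) and 2 without the top genes (6.50%). They numbered 2 with the 6 compared libraries alone (8.04%) and 2 to 5 with 1 library left out (7.53% to 14.0%). The median (-0.13) became 0.36 with total library size and ran from -0.38 to 0.16. Members that differed among the groups (5, against 35.1% of all genes) numbered 11, 9, 8, 8 and 9 with total library size, without the top genes, without a filter, with DESeq2 and with sex as a term, and 4 to 10 with 1 library left out. The share of all genes under these alternatives is not given here, so these numbers are not read as results about the members. Total library size moved the median of all genes by 0.55 in Atg7-KO and 0.50 in S351A against cont. Relative to it, the medians of the 29 were -0.22 and -0.11, against -0.22 and -0.10 with TMM. The cause of the other moves was not tested. No called member changed direction. Between S351A and Atg7-KO 0 members were called under each alternative.

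Correlations of deviations from the group mean did not settle whether replicate numbers pair the livers. Between same-numbered livers they ran from -0.041 to 0.306 and exceeded 0.1 in 5 of 9 pairs. Between livers of other groups with another number they ran from -0.265 to 0.212. The highest of these was between cont. replicate 2 and Atg7-KO replicate 3. Replicate 1 was male and replicate 2 female in each group, so sex ran partly with the number. With the replicate number as a block, the Atg7-KO calls were 0 higher and 7 lower (median -0.22), with Abcg5 called and Scarb1 not, 0 and 6 in S351A (median -0.12), with Abcg5 and Abcg8 added, 0 and 0 between S351A and Atg7-KO (median 0.05), and 7 differed among the groups.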
